A study of Mus musculus with 16 samples.

Results

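Cholesterol synthesis and its control were followed through 28 genes in mouse HM1 ovarian tumours, some grown under supplementation with the simple sugar mannose. The members were chosen by symbol: 17 encode enzymes of the pathway from acetyl-CoA to cholesterol, 5 encode the proteins that switch the pathway on or off, and 6 serve sterol transport, storage or sensing. All 28 were found, among 53112 symbols in the tables of whole tumours and 55290 in those of sorted cells. The groups are sorted CD8 T cells from tumours of mice given mannose (3 libraries), sorted CD8 T cells without mannose (3 libraries), whole tumours with mannose (5 libraries) and whole tumours without mannose (5 libraries). The labels give no strain, age, dose or length of treatment, and they tie no replicate to an animal, so a p-value here covers the spread among these samples, which may be technical. The series title names anti-PD-1 therapy, but no label tells whether these tumours received it. HM1 is a cell line, so every tumour descends from the same cultured cells.

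Cells make cholesterol from acetyl-CoA through mevalonate, farnesyl diphosphate, squalene and lanosterol. The transcription factor SREBP-2, made from Srebf2, turns on the genes of these enzymes when sterols in the endoplasmic reticulum are low; the escort protein Scap carries it to the Golgi for cleavage, and the Insig proteins hold it back when sterols are plentiful. The LXR nuclear receptors sense oxidised sterols and turn on genes of cholesterol export such as Abca1 and Abcg1. In activated T cells the synthesis pathway is known to be turned on for growth, and membrane cholesterol is known to affect T cell receptor clustering.

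Values are TPM, a transcript abundance corrected for length and scaled to a common total in each library, so levels may be set side by side between genes. Read depth is unknown, and the number of symbols at 1 TPM or more ran from 12345 to 14384 per library. In whole tumours and sorted cells taken in bulk, fewer cells of a type and less RNA per cell cannot be told apart. The sorted libraries carried their defining T cell genes, with Cd8a at 409 ± 142 TPM with mannose and 582 ± 11.4 TPM without (SD, n = 3 each), but also genes of other cells. The 11 macrophage markers summed to between 1132 and 1501 TPM with mannose and between 4086 and 4369 TPM without, and each of the 11 was lower in every mannose library. The 9 T cell markers summed to between 2538 and 4748 TPM with mannose and between 4879 and 5239 TPM without. The 11 carcinoma markers summed to between 1744 and 2671 TPM with mannose and between 259 and 574 TPM without, and 6 of them were higher in every mannose library. The other way, Cdh1, the gene of E-cadherin, was lower in every mannose library (9.13 to 14.43 TPM, against 28.03 to 30.12 TPM without), and Epcam and Cldn7, both below 1 TPM, had lower means. The 7 fibroblast markers ranged from 247 to 387 TPM with mannose and from 46.2 to 136 TPM without. The 4 neutrophil markers summed to between 92.4 and 192 TPM with mannose and between 283 and 640 TPM without, while the 3 B cell markers stayed at or below 0.25 TPM in sum, with Ms4a1 at 0 in all 6 libraries. In the tumours the keratin gene Krt8 averaged 1240 TPM with mannose and 1486 TPM without, while Epcam, an epithelial surface marker, stood at or below 0.24 TPM in every tumour. CD8 mannose 1 and 2 shared 93.6% of their T cell receptor V segment use, and CD8 control 1 and 2 shared 96.0%, against 42.2% to 62.7% for other pairs. The labels do not tell whether the libraries of such a pair came from the same animal or pool. The n = 3 of each CD8 group may therefore overstate its independent samples. Results are for this reason also given with each of these pairs averaged into 1 library.

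Promoter sequences are shown for 4 members that moved or differed below: Hmgcs1, which was higher in CD8 cells than in tumours without mannose, Mvd, which fell with mannose in CD8 cells, and Insig1 and Insig2, which rose. They run from 250 bases before to 50 bases after the annotated start in RefSeq's table for mouse build GRCm38.p6, an older build than the GRCm39 of the expression tables. Capitals mark TCACNCCAC, a form of the sterol response element that SREBP binds, and the NF-Y box CCAAT, on either strand (ATTGG on the printed strand is the reverse of CCAAT). The windows are chr13:119690101-119690400 (plus strand) for Hmgcs1, chr8:122443373-122443672 (minus strand) for Mvd, chr5:28071162-28071461 (plus strand) for Insig1 and chr1:121332540-121332839 (minus strand), the first of 3 windows, for Insig2.
Hmgcs1: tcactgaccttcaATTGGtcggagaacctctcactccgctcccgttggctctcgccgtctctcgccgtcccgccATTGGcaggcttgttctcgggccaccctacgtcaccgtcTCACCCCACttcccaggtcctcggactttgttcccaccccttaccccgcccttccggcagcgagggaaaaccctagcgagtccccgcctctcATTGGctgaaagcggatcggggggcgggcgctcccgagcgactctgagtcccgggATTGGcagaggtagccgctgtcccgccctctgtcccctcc
Mvd: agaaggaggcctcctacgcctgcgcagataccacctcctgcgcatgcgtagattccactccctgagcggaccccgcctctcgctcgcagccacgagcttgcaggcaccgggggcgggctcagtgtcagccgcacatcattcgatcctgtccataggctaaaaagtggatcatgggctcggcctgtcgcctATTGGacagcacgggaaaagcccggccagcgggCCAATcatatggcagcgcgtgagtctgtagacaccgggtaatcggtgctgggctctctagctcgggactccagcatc
Insig1: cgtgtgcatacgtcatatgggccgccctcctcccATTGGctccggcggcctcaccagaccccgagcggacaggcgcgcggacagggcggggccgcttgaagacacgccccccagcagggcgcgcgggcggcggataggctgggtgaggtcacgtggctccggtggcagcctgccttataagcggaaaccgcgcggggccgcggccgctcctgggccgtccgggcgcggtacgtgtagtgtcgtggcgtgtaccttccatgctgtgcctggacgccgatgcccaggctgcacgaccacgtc
Insig2: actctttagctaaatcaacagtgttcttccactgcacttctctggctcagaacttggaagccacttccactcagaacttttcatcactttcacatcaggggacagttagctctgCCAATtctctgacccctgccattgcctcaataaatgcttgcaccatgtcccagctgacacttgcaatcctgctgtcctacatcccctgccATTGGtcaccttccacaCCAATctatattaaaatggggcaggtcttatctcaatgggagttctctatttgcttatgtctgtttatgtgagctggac

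The table held 32 windows for 23 of the 28 members; Abcg1, Fdft1, Sqle, Fdps and Stard4 had none. TCACNCCAC was found in 1 of the 32 windows, that of Hmgcs1 (3.12%), against 1.24% of all 32851 windows of the same length. CCAAT stood in 19 of the 32 (59.4%, against 37.4% of all windows), with 4 copies in Hmgcs1, 3 in Insig2, 2 in Mvd and 1 in Insig1. The Sp1 box GGGCGG, searched on both strands, stood in 24 of the 32 (75.0%, against 35.7% of all), with 3 copies in Hmgcs1, 3 in Insig1 and 1 in Mvd. No match of these 3 motifs overlapped another in the printed windows. A match says only that these letters are present.

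In sorted CD8 T cells, mannose was set against control to ask how the supplement changed expression in these cells. The pathway did not move as a block: 7 members rose (Acat2, Fdft1, Sqle, Insig1, Insig2, Abcg1 and Soat1) and 3 fell (Pmvk, Mvd and Abca1). Pmvk and Mvd, neighbouring steps after mevalonate, fell, while Fdft1 and Sqle, which make and oxidise squalene, rose. Both Insig genes rose, and of the 2 exporters Abcg1 rose and Abca1 fell. By limma with Benjamini-Hochberg adjustment over all genes, 10 of the 28 members passed an adjusted p of 0.05 (35.7%), against 34.9% of all 14280 genes tested, so the share of members called was near the background. Of all genes 23.2% passed as higher and 11.7% as lower. The 2 groups did not overlap for 14 members, against 51.4% of all genes. The median log2 difference was 0.01 over the members and 0.09 over all genes, with 15 of 28 members and 58.1% of all genes above 0, each log2 difference here being taken on log2(TPM + 1). The split of calls depended on the scaling: 4 rose and 6 fell after quantile normalization, and 4 rose and 5 fell after median-ratio scaling, which moved the median of all genes to -0.03 and -0.02. With the like libraries averaged, 4 of the 10 calls were kept, the rises of Sqle and Insig2 and the falls of Pmvk and Abca1.

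**Figure D1:**
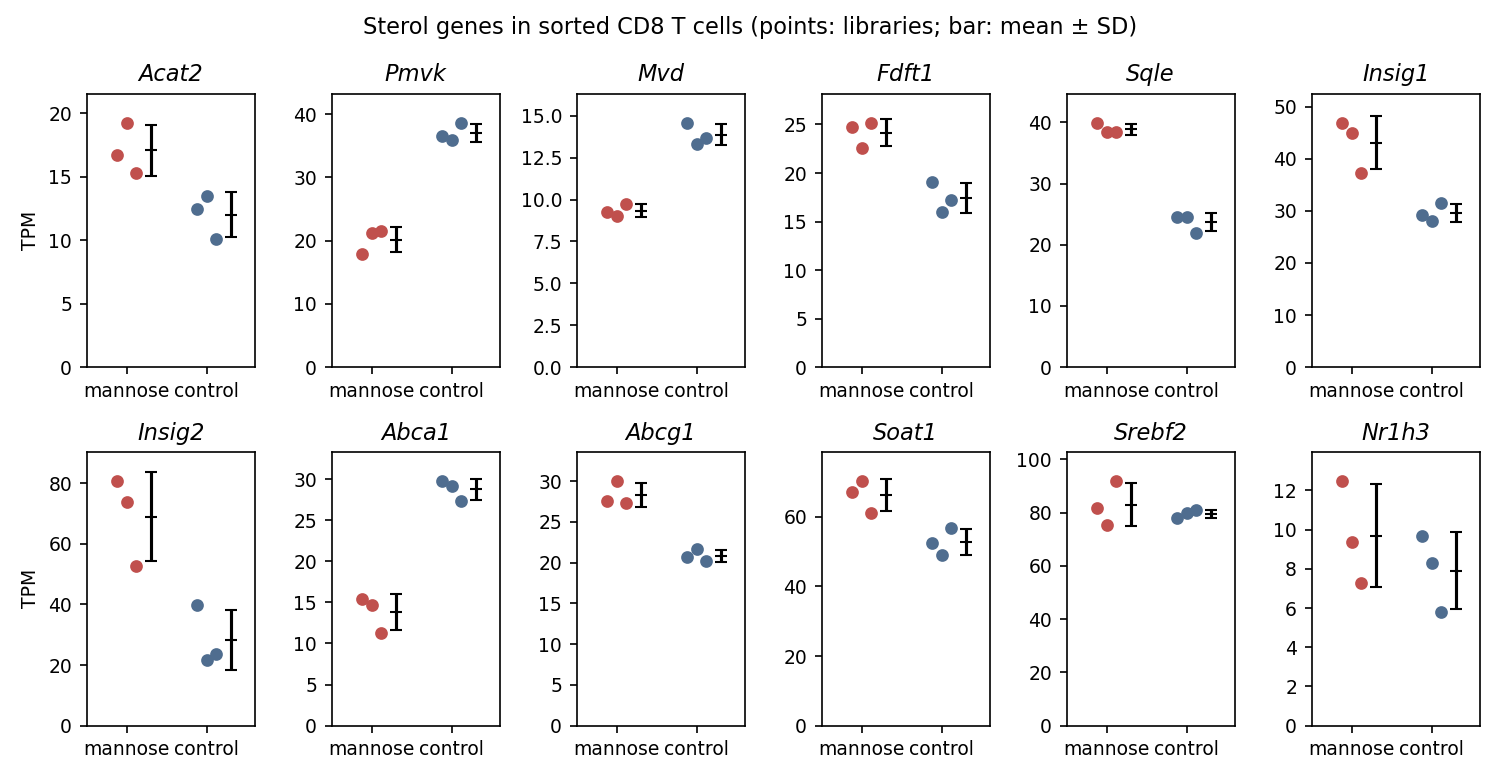
TPM (vertical axis, from 0) of 12 sterol genes in sorted CD8 T cells, with 1 point per library for 3 mannose (left in each panel) and 3 control libraries (right) and bars at the mean ± SD. Sqle and Insig2 lie wholly above control and Pmvk and Abca1 wholly below it, while Srebf2 and Nr1h3 overlap.

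Among the 17 enzymes, 3 rose and 2 fell (29.4%, against 34.9% of all genes called). The median log2 difference was -0.12, against 0.09 over all genes. Acat2, which joins acetyl-CoA units at the entry to the pathway, had 16.71, 19.23 and 15.26 TPM with mannose, against 12.46, 13.47 and 10.05 TPM without. Every mannose library was above every control library, a rise of 0.48 on the log2 scale (SE 0.147, adjusted p = 0.0434). This call was kept in 4 of 14 alternative settings, with adjusted p = 0.162 when like libraries were averaged, and the difference was 0.29 after quantile normalization. Leaving out any library but mannose 3 ended the call (adjusted p up to 0.149). A near-identical copy, Acat3, was listed at 0.17 to 0.86 TPM in these libraries, and how reads were split between the copies is not given in the sources used here.

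Pmvk, the phosphomevalonate kinase, showed the largest fall among the enzymes. It had 17.87, 21.19 and 21.46 TPM with mannose, against 36.50, 35.94 and 38.63 TPM without. The groups were far apart relative to their spread, at 20.2 ± 2.00 and 37.0 ± 1.42 TPM (SD, n = 3 each), and the log2 difference was -0.85 (SE 0.104, adjusted p = 0.00232). It passed in all 14 alternatives, with adjusted p = 0.0328 when like libraries were averaged. Mvd, which performs the next step and makes isopentenyl diphosphate, had 9.28, 9.01 and 9.75 TPM with mannose, against 14.58, 13.33 and 13.70 TPM without. All 3 mannose libraries lay below all 3 controls, with a log2 difference of -0.52 (SE 0.106, adjusted p = 0.0104). That call was lost when like libraries were averaged (adjusted p = 0.107). Mvk, the kinase before Pmvk, also did not overlap between groups, as was so for 51.4% of all genes. It had 11.96 to 12.70 TPM with mannose and 14.04 to 14.26 TPM without, and its log2 difference of -0.18 did not pass (adjusted p = 0.194). Mvk did pass in 2 of 14 alternatives, quantile normalization and array weights. Fdps, which makes farnesyl diphosphate, averaged 63.0 ± 12.6 TPM with mannose and 78.7 ± 4.22 TPM without and did not pass (adjusted p = 0.112). Fdps did pass in 3 of 14 alternatives: median-ratio scaling, array weights and without mannose 3. Hmgcs1, which makes HMG-CoA, had 41.23, 43.76 and 48.04 TPM with mannose, against 44.90, 45.49 and 40.63 TPM without. Its groups overlapped, and its log2 difference of 0.02 changed sign under several settings.

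Of the enzymes from squalene synthesis onwards, Fdft1 and Sqle rose. Fdft1, the squalene synthase, had 24.77, 22.56 and 25.17 TPM with mannose, against 19.09, 16.01 and 17.17 TPM without. Every mannose library was higher, with a log2 difference of 0.45 (SE 0.107, adjusted p = 0.0182; 0.0943 with like libraries averaged, 0.30 on the log2 scale after quantile normalization). The call was lost without control 2 or mannose 1 (adjusted p up to 0.0695). Sqle, the squalene epoxidase and a control point of the pathway, had 39.93, 38.36 and 38.36 TPM with mannose, against 24.56, 24.51 and 21.97 TPM without. The mannose libraries agreed within 2 TPM of each other and the whole group stood 1.62-fold higher on the log2(TPM + 1) scale, a log2 difference of 0.69 (SE 0.0887, adjusted p = 0.00252). The rise passed in all 14 alternatives and with like libraries averaged (adjusted p = 0.0378). Msmo1, a methyl sterol oxidase, did not overlap between groups, as was so for 51.4% of all genes. It had 29.57 to 31.48 TPM with mannose and 22.76 to 26.79 TPM without, and missed the threshold with a log2 difference of 0.29 (adjusted p = 0.0604). Msmo1 passed in 1 of 14 alternatives, array weights. The other 8 enzymes, from Lss and Cyp51 to Dhcr7 at the end of the pathway and with Idi1 among them, did not pass, with log2 differences between -0.20 for Hsd17b7 and 0.32 for Lss. Of these, Hsd17b7 passed in 2 of 14 alternatives, and Sc5d and Dhcr7 in 1 each. Summed over all 17 enzymes, CD8 libraries held 403 to 454 TPM with mannose and 432 to 447 TPM without, so the groups overlapped.

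The 5 control genes had positive log2 differences, as did 58.1% of all genes. Their median was 0.29, against 0.09 over all genes. The difference of Srebf2 turned negative after median-ratio scaling, with array weights and without mannose 3. Of the 5 control genes, 2 passed (40%, against 34.9% of all genes). Insig2, 1 of the 2 proteins that keep the SREBP-Scap complex in the endoplasmic reticulum, had 80.64, 73.82 and 52.58 TPM with mannose, against 39.74, 21.57 and 23.61 TPM without. The lowest mannose library exceeded the highest control library, and the group stood 2.44-fold higher on the log2(TPM + 1) scale, a log2 difference of 1.28 (SE 0.257, adjusted p = 0.00980). It was the largest rise among the members and passed in all 14 alternatives, with adjusted p = 0.0381 when like libraries were averaged. Insig1, its partner and itself a target of SREBP, had 46.91, 44.94 and 37.29 TPM with mannose, against 29.30, 28.05 and 31.55 TPM without. The groups did not overlap, with a log2 difference of 0.52 (SE 0.113, adjusted p = 0.0132), but the call was lost when like libraries were averaged (adjusted p = 0.130) and without control 2 or mannose 2 (adjusted p up to 0.0580). The transcription factor gene Srebf2 had 81.87, 75.39 and 91.72 TPM with mannose, against 78.02, 79.67 and 80.86 TPM without. Its groups overlapped (log2 difference 0.06, adjusted p = 0.663). Scap reached 29.8 ± 1.72 TPM with mannose and 24.2 ± 1.72 TPM without (adjusted p = 0.0578). Srebf1, whose product drives fatty acid synthesis more than sterol synthesis, reached 54.7 ± 6.02 TPM with mannose and 45.4 ± 2.72 TPM without (adjusted p = 0.0985). Neither passed, although for both the groups did not overlap, as was so for 51.4% of all genes. Scap passed in 1 of 14 alternatives, array weights.

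Of the 6 genes of transport, storage and sensing, 2 rose and 1 fell (50%, against 34.9% of all genes). Abca1, which exports cholesterol to lipid-poor apolipoprotein, had 15.41, 14.70 and 11.32 TPM with mannose, against 29.73, 29.16 and 27.33 TPM without. The groups did not overlap and the log2 difference was -1.02 (SE 0.134, adjusted p = 0.00272), the largest fall among the members. It passed in 13 of 14 alternatives, including like libraries averaged (adjusted p = 0.0344), and was lost when all 16 libraries were fitted together (adjusted p = 0.0750). Abcg1, which exports cholesterol to mature lipoprotein particles, had 27.60, 29.98 and 27.29 TPM with mannose, against 20.72, 21.64 and 20.15 TPM without. Every mannose library was higher, with a log2 difference of 0.42 (SE 0.0911, adjusted p = 0.0127; 0.110 with like libraries averaged and 0.0614 without mannose 2). Soat1, which stores cholesterol as esters, had 67.06, 70.17 and 61.21 TPM with mannose, against 52.55, 48.97 and 56.63 TPM without. The groups did not overlap, with a log2 difference of 0.32 (SE 0.0934, adjusted p = 0.0358), a call kept in 4 of 14 alternatives (adjusted p = 0.237 with like libraries averaged; log2 difference 0.20 after median-ratio scaling) and lost without control 1, control 2, mannose 1 or mannose 2 (adjusted p up to 0.129). The LXR gene Nr1h3 had 12.46, 9.35 and 7.26 TPM with mannose, against 9.65, 8.28 and 5.79 TPM without, and its groups overlapped (adjusted p = 0.438). Nr1h2, the other LXR gene, averaged 118 ± 7.32 TPM with mannose and 117 ± 4.28 TPM without. Stard4, a carrier that moves sterol between membranes, averaged 13.1 ± 4.10 TPM with mannose and 18.3 ± 1.16 TPM without and did not pass (adjusted p = 0.109). Stard4 did pass in 4 of 14 alternatives: quantile normalization, median-ratio scaling, array weights and without mannose 3. In the same libraries the macrophage markers were lower and the carcinoma and fibroblast markers higher with mannose, by the sums given above, and their part in these differences was not tested.

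**Figure D2:**
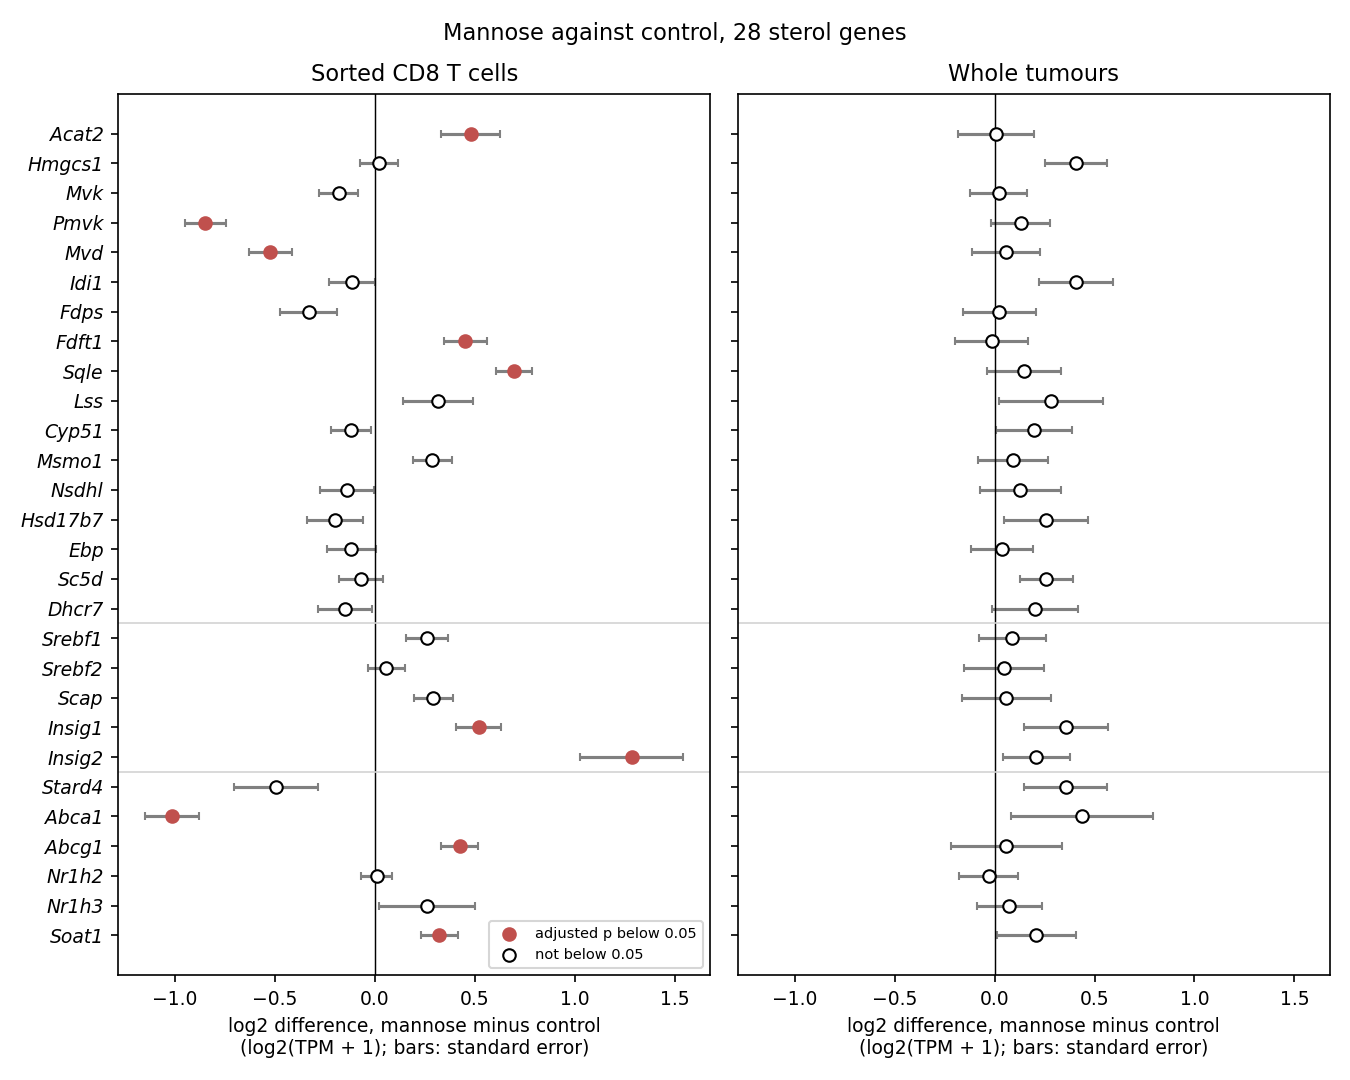
Log2 difference between mannose and control on log2(TPM + 1) (horizontal axis), with standard errors, for the 28 genes in sorted CD8 T cells (left) and whole tumours (right). Filled points pass an adjusted p of 0.05: 10 genes in the CD8 cells, spread from -1.02 for Abca1 to 1.28 for Insig2, and none of 28 in the tumours.

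In whole tumours the same comparison gave no call. By limma with Benjamini-Hochberg adjustment, 0 of 28 members passed, as did 0% of the 13282 genes tested. An unadjusted p under 0.05 was reached by 2 members, against 6.23% of all genes. Mannose means were higher on the log2 scale for 26 of 28 members, against 74.4% of all genes, but for 17 of 28 after quantile normalization and 13 of 28 after median-ratio scaling. The median was 0.13 over the members and 0.12 over all genes, and the scalings moved the median of all genes to -0.0049 and -0.0098. The 2 groups overlapped for all 28 members; they did not overlap for 1.63% of all genes.

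Hmgcs1 had 37.32, 45.87, 27.25, 32.45 and 39.62 TPM with mannose, against 21.60, 29.28, 32.41, 27.86 and 24.43 TPM without. In 4 of 5 mannose tumours it stood above every control tumour, though mannose 4 barely so (32.45 TPM, against 32.41 TPM in control 3). The log2 difference was 0.41 (unadjusted p = 0.0227, adjusted p = 0.754). Idi1, which isomerises isopentenyl diphosphate, had 25.63, 32.88, 18.22, 25.33 and 32.92 TPM with mannose, against 23.47, 23.19, 20.01, 19.35 and 14.02 TPM without. Again 4 of 5 mannose tumours lay above every control, with a log2 difference of 0.41 (unadjusted p = 0.0499, adjusted p = 0.754). In both genes the exception was mannose 3.

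Sqle, Insig1 and Abca1, which were called in CD8 cells, and Srebf2 and Nr1h3, which were not, all overlapped between groups here. Sqle had 63.48, 69.44, 39.54, 42.88 and 54.55 TPM with mannose, against 35.87, 45.08, 62.19, 44.19 and 54.69 TPM without, a log2 difference of 0.15 with both groups spread over the same range. Insig1 had 59.80, 68.92, 40.05, 57.58 and 56.87 TPM with mannose, against 26.85, 56.80, 57.24, 45.55 and 38.36 TPM without (log2 difference 0.36). Srebf2 had 120.11, 125.28, 93.90, 86.09 and 84.85 TPM with mannose, against 64.06, 86.76, 136.40, 92.35 and 124.76 TPM without. The highest and the lowest Srebf2 values both came from control tumours, and its log2 difference of 0.05 turned to -0.09 after median-ratio scaling. Abca1 had 9.40, 5.80, 13.98, 7.76 and 5.10 TPM with mannose, against 1.75, 9.30, 5.39, 6.42 and 8.29 TPM without. The log2 difference of Abca1 was 0.44, and -0.07 without the highest tumour, mannose 3, and the lowest, control 1. Leaving out these extremes could only lower it. With any 1 library left out it stayed between 0.12 and 0.60. Nr1h3 had 11.97, 12.93, 22.16, 15.25 and 16.40 TPM with mannose, against 11.77, 15.27, 15.43, 14.90 and 15.85 TPM without, and the value of mannose 3 stood alone. Mannose 3 also held the highest sum of T cell markers (266 TPM, against 54.4 to 141 TPM in control tumours) and of macrophage markers (4559 TPM, against 1653 to 2901 TPM in control tumours), whose part was not tested.

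**Figure D3:**
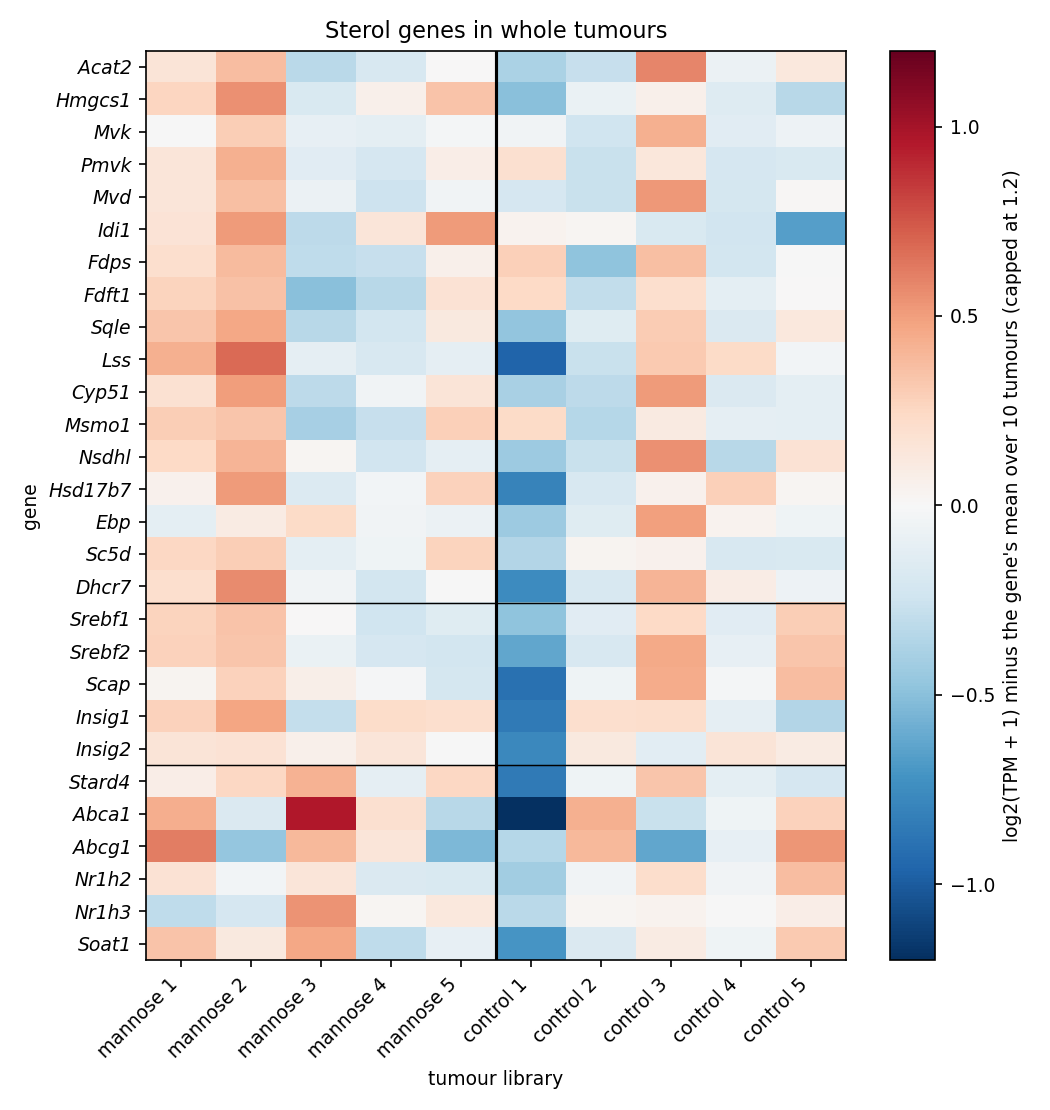
Deviation of log2(TPM + 1) from each gene's mean over 10 tumours (colour, capped at 1.2) for the 28 genes (rows) in 5 mannose tumours (left) and 5 control tumours (right). The enzymes are high together in mannose 2 and control 3 and low in control 2, and control 1 is low for most genes.

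The enzymes varied from tumour to tumour within both treatments. Mannose 2 had the highest level of 10 of the 17 enzymes and was among the top 2 for 16 of them, while 7.30% of all genes tested were highest in that tumour. Control 3 was highest for 6 enzymes (19.5% of all genes), and mannose 5 for the remaining 1. Control 1 was lowest for 10 enzymes, but also for 60.3% of all genes, and its symbols at 1 TPM or more were the fewest of the 10 tumours, at 12345. Control 2 was lowest for 4 enzymes, against 4.44% of all genes. Summed over the 17 enzymes, the tumours ranged from 527 to 794 TPM with mannose and from 503 to 766 TPM without. The coefficient of variation of a member between libraries had a median of 19.5% in mannose tumours and 24.9% in control tumours, and of 9.91% in mannose and 6.30% in control CD8 libraries.

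Whether the effect of mannose differed between CD8 cells and tumours was tested directly, by the interaction term of a joint fit over the 16 libraries. It passed for 2 of 28 members, against 18.7% of the 15498 genes tested. Pmvk differed by -0.98 on the log2 scale (SE 0.209, adjusted p = 0.00415): against its fall in CD8 cells, tumours had 36.03, 44.08, 29.51, 28.08 and 34.44 TPM with mannose and 37.23, 26.81, 35.68, 28.06 and 28.41 TPM without. The tumour groups overlapped, and the interaction passed in all 24 alternatives. Insig2 differed by 1.07 (SE 0.311, adjusted p = 0.0247). Tumours had 69.63, 70.81, 65.12, 69.33 and 62.18 TPM with mannose, against 36.17, 67.89, 57.38, 69.72 and 67.12 TPM without. Control 1 stood lowest, and control 3 was also below every mannose tumour. The call on Insig2 was lost in 6 of 24 alternatives, among them like libraries averaged (adjusted p = 0.0644), CD8 mannose 1 left out (0.0834), CD8 mannose 2 left out (0.0672), CD8 control 2 left out (0.0737) and CD8 control 3 left out (0.0747). Abca1 (-1.45, SE 0.505, adjusted p = 0.0571) and Stard4 (-0.85, SE 0.325, adjusted p = 0.0822) missed the threshold. Abca1 passed in 8 of 24 alternatives and Stard4 in 5, both with quantile normalization and median-ratio scaling among them. After quantile normalization 1 member was higher and 4 lower in this contrast, and after median-ratio scaling 1 was higher and 3 lower.

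Levels without mannose were compared between CD8 cells and whole tumours. The deposited symbol sets differ (53112 in tumours, 55290 in CD8 cells), and TPM were not rescaled to the shared symbols. Any effect of this cannot be told apart from tissue in this contrast. In the contrast of control CD8 libraries over control tumours, 17 of 28 members passed (60.7%), against 68.9% of all genes, so members differed no more often than other genes: 6 were higher and 11 lower in CD8 cells (40.1% and 28.7% of all genes). After quantile normalization the split was 4 higher and 15 lower, and after median-ratio scaling 4 and 14, with the median of all genes moved to -0.07 and -0.01, against 0.17 on the values as deposited. Stard4 stood highest over the tumours, at 19.63, 17.41 and 17.91 TPM in control CD8 cells, against 0.94, 2.38, 3.41, 2.22 and 2.05 TPM in control tumours. The groups did not come close to each other, and the log2 difference was 2.64 (SE 0.230, adjusted p = 6.8e-08). Abca1 followed at 28.7 ± 1.25 TPM in CD8 cells (n = 3) and 6.23 ± 2.94 TPM in tumours (n = 5), a log2 difference of 2.17 (adjusted p = 5.87e-05). Macrophage markers summed to between 4086 and 4369 TPM in the control CD8 libraries and between 1653 and 2901 TPM in control tumours, and carcinoma markers to between 259 and 574 TPM in those CD8 libraries and between 3674 and 5733 TPM in those tumours; their part in this contrast was not tested. Hsd17b7, a sterol ketone reductase, had a log2 difference of 1.03 and Hmgcs1 of 0.68, which was 0.43 after quantile normalization. The smaller differences of Idi1 (0.59) and Sc5d (0.51), a late desaturase, were lost under both scalings, at 0.33 and 0.23 after quantile normalization.

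On the lower side Acat2 had 12.46, 13.47 and 10.05 TPM in control CD8 cells, against 29.34, 31.63, 58.21, 36.78 and 42.16 TPM in control tumours. The log2 difference was -1.61 (SE 0.202, adjusted p = 3.67e-06), with no overlap. Fdft1 (-1.23), Insig2 (-1.06), Sqle (-0.98), Nr1h3 (-0.83), Fdps (-0.80), Mvd (-0.76), Msmo1 (-0.69), Mvk (-0.67) and Ebp (-0.56) were also lower in CD8 cells on the log2 scale, and passed in all 24 alternatives. Some of the 24 left out only a mannose library, which could not change a difference between controls. The call on Insig1 (-0.54, adjusted p = 0.0362) was lost in 9 of 24, among them fits without any 1 of the 3 CD8 controls or without tumour control 2, 3 or 4 (adjusted p up to 0.0991). Groups did not overlap for 14 of the 28 members, against 62.5% of all genes. This contrast shares the control CD8 libraries with the mannose comparison, so no relation between the 2 is given: Sqle, for example, measured 38.9 ± 0.906 TPM in mannose CD8 cells, 23.7 ± 1.48 TPM in control CD8 cells, 54.0 ± 12.9 TPM in mannose tumours and 48.4 ± 10.2 TPM in control tumours.

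**Figure D4:**
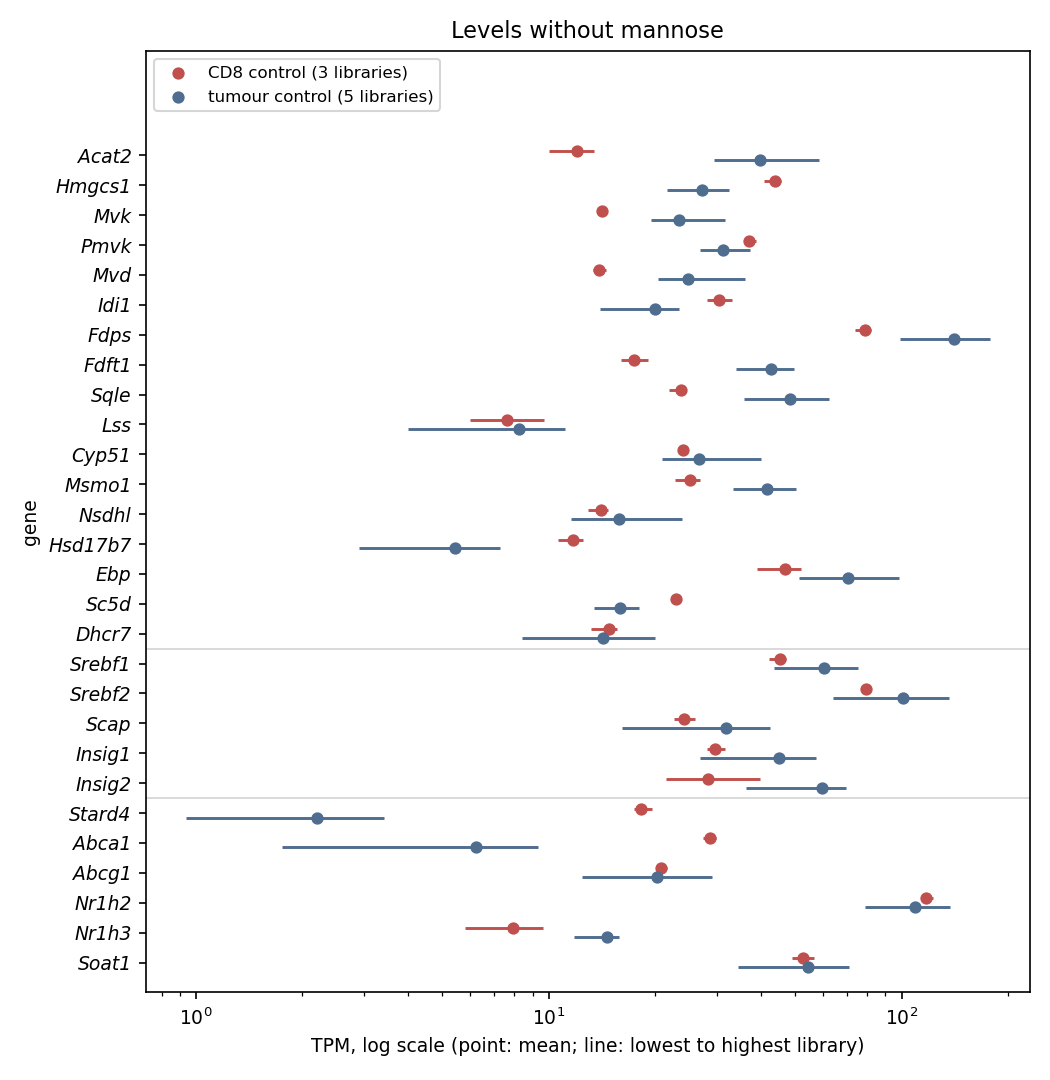
TPM on a log axis of the 28 genes without mannose, with the mean (point) and the lowest to highest library (line) of 3 control CD8 libraries (upper line of each pair) and 5 control tumours (lower line). Stard4 and Abca1 lie higher in CD8 cells without overlap, and Acat2, Fdft1 and Sqle lie lower.

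Nr1h2, Srebf2 and Fdps were the 3 highest members in tumours and in control CD8 cells. Nr1h2 was the highest member in CD8 cells, at 118 ± 7.32 TPM with mannose and 117 ± 4.28 TPM without, and Fdps was the highest in tumours, at 142 ± 29.3 TPM with mannose and 140 ± 33.0 TPM without (n = 5 each). Srebf2 came second in CD8 cells, at 83.0 ± 8.22 TPM with mannose and 79.5 ± 1.43 TPM without. With mannose, Insig2 came next in CD8 cells, at 69.0 ± 14.6 TPM. The lowest members were Mvd with mannose (9.35 ± 0.374 TPM) and Lss without (7.64 ± 1.90 TPM) in CD8 cells, and Stard4 in tumours (2.99 ± 0.539 TPM with mannose and 2.20 ± 0.881 TPM without). Lss, Nr1h3 and Mvd differed by less than their spread in mannose CD8 cells.

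Genes that work beside the members were followed as lists in CD8 cells. Of 10 fatty acid synthesis genes driven by SREBP-1, 7 rose and none fell, against 23.2% of all genes called higher and 11.7% called lower. The median log2 difference was 0.50, against 0.09 over all genes. Scd1, a desaturase that makes monounsaturated fatty acids, had 52.89, 47.69 and 30.83 TPM with mannose, against 12.02, 12.18 and 7.22 TPM without. No control library came near the mannose libraries (log2 difference 1.96, adjusted p = 0.00278), and the interaction with tissue passed too (1.85, adjusted p = 0.00602). Fasn, the fatty acid synthase, had 55.99, 54.95 and 55.49 TPM with mannose, against 34.18, 31.30 and 30.21 TPM without (log2 difference 0.78, adjusted p = 0.00157). Both passed in all 14 alternatives, and Scd2 (0.66) passed in 13. Elovl6 (0.58), Me1 (0.52), Acss2 (0.48) and Acly (0.33) rose by less on the log2 scale, and these 4 were not called with like libraries averaged, nor without mannose 1 or mannose 2 (adjusted p up to 0.111). After quantile normalization Elovl6 was at 0.34, Me1 at 0.27 and Acss2 at 0.24, and Acly was at 0.21 after median-ratio scaling. In tumours 0 of these 10 genes passed by limma, with 1 at an unadjusted p under 0.05, against 0% and 6.23% of all genes. Of the 11 carcinoma markers, 8 had higher and 3 lower means with mannose in the same CD8 libraries. In the contrast of controls, 9 of the 10 genes were lower in CD8 cells than in tumours, against 28.7% of all genes; the part of carcinoma cells was not tested.

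**Figure D5:**
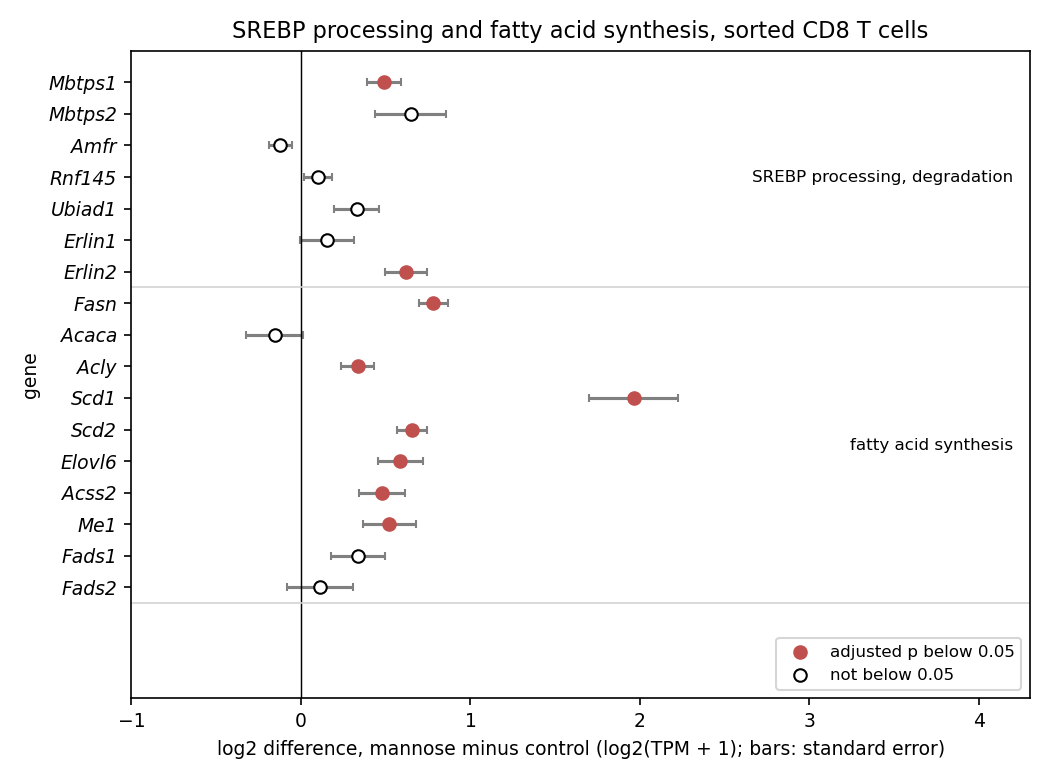
Log2 difference between mannose and control on log2(TPM + 1) (horizontal axis), with standard errors, in sorted CD8 T cells for 7 genes of SREBP processing and sterol-driven degradation (top) and 10 of fatty acid synthesis (bottom). Filled points pass an adjusted p of 0.05, and Scd1 lies farthest to the right at 1.96.

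Of 7 genes of SREBP processing and sterol-driven degradation, 2 rose (28.6%, no more than the 34.9% of all genes called in either direction): Mbtps1, the Golgi protease that makes the first cut of SREBP, by 0.49, and Erlin2, a membrane protein of the endoplasmic reticulum, by 0.62 on the log2 scale. Both were lost with like libraries averaged (adjusted p = 0.0749 and 0.0845). Of 9 genes of sterol uptake and transport, 2 rose and 4 fell, against 23.2% and 11.7% of all genes. Vldlr, a lipoprotein receptor, had 33.40, 29.50 and 23.91 TPM with mannose, against 5.36, 5.38 and 1.90 TPM without, a log2 difference of 2.60 (adjusted p = 0.00236) that passed in all 14 alternatives. The lipoprotein receptor Scarb1 rose by 0.58, a call lost with like libraries averaged (adjusted p = 0.183) and when any library but mannose 3 was left out. The genes that fell act in or feed the lysosome: Npc2, which binds cholesterol there, had 116.62, 116.47 and 118.18 TPM with mannose, against 180.56, 189.91 and 204.79 TPM without (adjusted p = 0.00149). The mannose libraries lay within 2 TPM of each other and below every control. Lipa (-0.64), which frees cholesterol from esters, Lrp1 (-0.53), an endocytic receptor, and Npc1 (-0.38), the partner of Npc2, fell as well, and these 3 calls were lost with like libraries averaged and in some fits with 1 library left out (adjusted p up to 0.0839; Lipa without mannose 2, Npc1 without control 2, mannose 1 or mannose 2, Lrp1 without any 1 control). Among 5 further LXR targets 2 rose and 2 fell, against 23.2% and 11.7% of all genes: the phospholipid transfer protein gene Pltp rose by 0.93 (adjusted p = 0.00506), Lpcat3 rose by 0.42 and Smpdl3a fell, with a log2 difference of -0.84 (adjusted p = 0.0223). With like libraries averaged, Pltp was still called and the other two were not. Lpcat3 and Smpdl3a also missed the threshold without control 2, mannose 1 or mannose 2, among others (adjusted p up to 0.0771). The interaction with tissue passed for Vldlr (2.51), Pltp (1.07), Npc2 (-0.79) and the oxysterol synthase Ch25h (-1.33), which averaged 3.86 ± 0.309 TPM in mannose and 5.57 ± 1.57 TPM in control CD8 cells, and 15.5 ± 5.54 TPM in mannose and 7.45 ± 1.84 TPM in control tumours. The first 3 passed in all 24 alternatives, while Ch25h was lost without CD8 control 2 (adjusted p = 0.0536) and with like libraries averaged (adjusted p = 0.0602). Over all genes tested, 18.7% passed this interaction. Of 6 further sterol enzymes and of 3 tested oxysterol genes 0 passed by limma, against 34.9% of all genes. An unadjusted p under 0.05 was reached by 1 and 0 of them, against 6610 of all 14280 genes. In the same mannose libraries macrophage markers were lower (1132 to 1501 TPM in sum, against 4086 to 4369 TPM without), and carcinoma (1744 to 2671 TPM, against 259 to 574 TPM) and fibroblast markers (247 to 387 TPM, against 46.2 to 136 TPM) were higher in sum; their part in these rises and falls was not tested.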

How the data were processed

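Bulk RNA sequencing covered 10 whole tumours and 6 samples of sorted CD8 T cells. For each library the authors deposited a table of TPM with 2 decimals; no source names the unit, and it was inferred from column sums of 993815 to 997810. Per the submitters' processing notes, fastp, HISAT, RSEM and build GRCm39 were used, without versions or roles; strand and annotation are not given in the sources used here. TPM carry no library totals, so depth is unknown.

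Groups follow the sample labels, although the headers of the 3 CD8 control tables name mannose samples. Rows sharing a symbol were summed. Each tissue was tested with limma 3.58.1 (R 4.3.3) with variance trend on log2(TPM + 1), for genes at 1 TPM or more in 5 tumour or 3 CD8 libraries, which all 28 members passed. The interaction and the contrast of controls came from a fit of 16 libraries on 52916 shared symbols, with at least 1 TPM in 3. P-values were Benjamini-Hochberg adjusted over all genes tested, and called below 0.05. The edgeR test planned in case the tables held counts was not used. The fits were tested on simulated data.

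The members, lists, tests and alternatives were chosen with earlier results of these data known. Values in every library are given for members past the threshold in CD8 cells or the interaction and for Srebf2, Insig1, Sqle, Abca1 and Nr1h3; Hmgcs1 and Idi1 in tumours and the members named in the contrast of controls were added after their values were seen, and other members are given by ranges and counts. A few genes of the further lists are counted but not reported by name here. Alternatives were pseudocount 0.1, no filter, quantile normalization, median-ratio scaling of TPM, array weights, a replicate block, all libraries in 1 fit, like CD8 libraries averaged, and libraries left out.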

Additional observations from a re-analysis of the deposited data

Results flagged for a closer look

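Over 56 groups of 5 tumours (28 members, 2 treatments), 4 held a tumour far from the rest of its group, where chance gives about 1 in 20. The number found was thus near that share. The groups are not independent either, since the enzymes were high together in mannose 2 and control 3. Mvk stood at 28.74 TPM in mannose 2, with the next mannose tumour at 23.13 TPM. It stood at 31.63 TPM in control 3, with the next control tumour at 22.53 TPM. Cyp51, the lanosterol demethylase, stood at 40.0 TPM in control 3, above the next control at 25.67 TPM. Nr1h3 stood at 11.77 TPM in control 1, below the next control at 14.90 TPM.

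The effect of mannose differed between CD8 cells and tumours, by the interaction of the joint limma fit, for Pmvk (-0.98 on the log2 scale, adjusted p = 0.00415) and Insig2 (1.07, adjusted p = 0.0247).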

How the results depend on the processing

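The number of members called in CD8 cells was 10, and 18 with array weights (9 higher, 9 lower), 4 with like libraries averaged and 3 with all 16 libraries in 1 fit; with 1 library left out it ranged from 6 (without CD8 control 2 or CD8 mannose 2) to 12. For the interaction it was 2, and 1 without a filter on low values, 5 after quantile normalization, 4 after median-ratio scaling, 9 with array weights, 1 with like libraries averaged, 4 without tumour control 1 and mannose 3, and 1 to 4 with 1 library left out (4 without tumour control 3). In tumours it was 0 in all 18 alternatives, and in the contrast of controls it lay between 16 and 20. The cause of these shifts was not tested, beyond the fewer samples of the averaged and left-out fits. The labels do not tell whether replicate numbers pair the samples. Same-numbered samples correlated at -0.51 to 0.28 in tumours and 0.06 to 0.16 in CD8 cells. Differently numbered ones correlated at -0.35 to 0.48 and -0.16 to 0.11. With so few samples these values cannot settle whether the numbers pair them. With the number as a block the counts were 9 in CD8 cells, 0 in tumours, 2 for the interaction and 16 for the contrast of controls. Soat1, Me1 and Acss2 in CD8 cells, the interaction of Ch25h and Insig1 in the contrast of controls were then not called.

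Among the named genes, signs turned only for log2 differences that had not passed. In CD8 cells Hmgcs1 was -0.028 after quantile normalization, -0.098 after median-ratio scaling, -0.037 with array weights and -0.037 to 0.070 with 1 library left out. Srebf2 was -0.063, -0.052 and -0.017 to 0.12 under the last 3 of these, and Nr1h2 -0.11, -0.036 and -0.039 to 0.047. In tumours Srebf2 was -0.0077 after quantile normalization, -0.095 after median-ratio scaling, -0.077 without control 1 and mannose 3, and -0.10 to 0.17 with 1 library left out. Nr1h3 was -0.059, -0.060, -0.12 and -0.050 to 0.16 under these, and -0.049 with array weights. Abca1 was -0.066 without control 1 and mannose 3. Read depth is unknown, so differences of low genes such as Stard4 in tumours carry no counting interval.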
